A study of Homo sapiens with 6 samples.

Results

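Galectins are lectins that bind β-galactoside sugars through a conserved carbohydrate recognition domain. They are made in the cytosol and leave the cell without a signal peptide, so they act both on glycans of the cell surface and matrix and inside the cell. In monocytes and macrophages they are known for adhesion, clearance of dying cells and the recognition of damaged lysosomes and phagosomes, where lumenal glycans become exposed to the cytosol.

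The galectins described here are LGALS1, LGALS2, LGALS3, LGALS8 and LGALS12, 5 genes named with the count and FPKM columns of both groups in view. LGALS2 was not analysed here, which leaves 4 of 35042 genes, and because their values were known when they were chosen, these are described without a test. RNA-seq compared wild-type THP-1 cells with no treatment and wild-type THP-1 cells given PMA, with 3 libraries in each group. THP-1 is a human monocytic leukaemia line, so all libraries come from a single line, and PMA, a protein kinase C activator of the phorbol ester type, is used to drive these cells toward macrophages. The study sequenced PMA-treated cells to ask how phase separation of the factor C/EBPα bears on transcription. No source used here gives the dose or duration of PMA for these libraries.

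The gene counts summed to between 61547700 and 88227830 per library. SPI1, the myeloid factor PU.1, had a mean of 99.8 FPKM (counts scaled to gene length and library size) without PMA and 124 with it, and CD33 had 13.6 and 9.87. MPO, CD36 and CD86 of the same list of monocytic genes were under 1 FPKM in both groups. The summed FPKM of 7 lymphoid markers was 2.53 to 4.14 in the untreated and 5.00 to 8.57 in the PMA libraries, and that of 8 erythroid and megakaryocyte markers was at most 0.772 in any library. The 11 stromal, epithelial and endothelial markers summed to 15.5 to 19.6 and to 129 to 144 FPKM, of which PECAM1, also a gene of monocytes, made up 14.3 and 135 on average. VWF, an endothelial and megakaryocyte gene of that list, had at most 0.00924 FPKM without PMA and 1.17 to 1.36 with it. HBA1, HBA2, HBG1, PPBP, GP9 and KLRD1 were at 0 in the untreated libraries, and COL3A1, LUM and CDH1 were at 0 in the PMA libraries. COL3A1, a fibroblast collagen, had 1117 counts in untreated replicate 3 and 0 in the remaining 5 libraries. KRT19, an epithelial keratin, had 165 counts in untreated replicate 1 and 78 in PMA replicate 1, and at most 3 elsewhere. The part of these markers in the results was not tested. PMA replicates 2 and 3 lay closer together than any other pair of a group, with a median absolute difference of 0.09 log2 CPM (counts scaled to library size) against 0.13 to 0.22, and whether they are separate cultures is not settled by the data.

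The members represent the 3 architectures of the family. Galectin-1 is a prototype galectin with a single domain that forms a homodimer. Galectin-3 is the chimera type, a single domain behind a flexible N-terminal tail that lets it form oligomers. Galectin-8 and galectin-12 are tandem-repeat galectins with a pair of domains on the same chain. The canonical coding sequences hold 135 codons in LGALS1, 250 in LGALS3, 317 in LGALS8 and 314 in LGALS12. The stretch that contacts the sugar is shown for each because it is what makes these genes a family. It was found by searching the translated GENCODE v44 sequence for histidine, any residue, asparagine, any residue and arginine, then 10 to 30 residues, then tryptophan, any pair of residues and glutamate. Capitals mark the codons of the histidine, asparagine, arginine, tryptophan and glutamate, the sequences run 5′ to 3′ on the plus strand of hg38, and each lies within a single exon.
LGALS1, exon 3, chr22:37678526-37678609: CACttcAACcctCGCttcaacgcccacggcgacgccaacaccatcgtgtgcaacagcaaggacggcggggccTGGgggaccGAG
LGALS3, exon 5, chr14:55142624-55142704: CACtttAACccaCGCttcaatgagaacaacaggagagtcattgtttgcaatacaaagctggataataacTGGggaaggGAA
LGALS8, first domain, exon 4, chr1:236538937-236539011: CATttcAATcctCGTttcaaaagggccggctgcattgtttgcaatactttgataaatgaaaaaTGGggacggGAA
LGALS8, second domain, exon 9, chr1:236544796-236544867: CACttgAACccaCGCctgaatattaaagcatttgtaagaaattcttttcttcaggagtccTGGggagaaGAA
LGALS12, first domain, exon 3, chr11:63508836-63508913: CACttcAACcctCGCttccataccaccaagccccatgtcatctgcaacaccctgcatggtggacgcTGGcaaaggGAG
The stretch had 28 codons in LGALS1, 27 in LGALS3, 25 and 24 in LGALS8 and 26 in LGALS12. The pattern matched at 2 places in LGALS8 and at 1 place in LGALS12, whose other domain did not match it.

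LGALS1, LGALS3 and LGALS8 were higher in the PMA libraries and LGALS12 was lower, with no overlap of the groups for any of the 4. The share of all tested genes without such overlap was not computed, so nothing particular to galectins is read from it. In the test over all genes (edgeR's quasi-likelihood test, called at a Benjamini-Hochberg adjusted p under 0.05) 3 of the 4 were called higher and 1 lower. Of the 12947 genes tested, 65.5% were called in either direction, 32.7% higher and 32.8% lower. At least 2-fold and called were 14.5% higher and 8.38% lower, and since the members were picked on this contrast nothing is read from their count. In bulk samples a change in the share of cells that express a gene and a change of RNA per cell cannot be told apart.

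**Figure D1:**
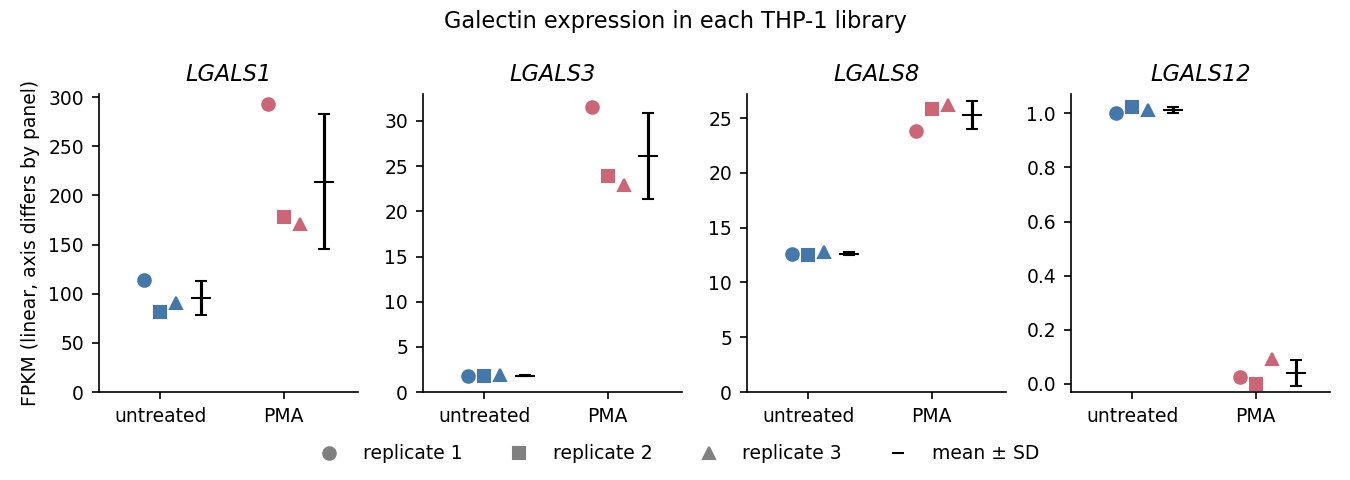
FPKM of each galectin in each library (linear axes that differ by panel), with untreated libraries in blue, PMA libraries in red, marker shapes for replicates 1 to 3 and black bars for mean ± SD (n = 3). LGALS1, LGALS3 and LGALS8 lie higher in all 3 PMA libraries, LGALS12 lies near 0 there, and PMA replicate 1 stands above replicates 2 and 3 for LGALS1 and LGALS3.

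LGALS3 encodes galectin-3, long used as the macrophage antigen Mac-2, and had the largest rise of the 4. It lies on chromosome 14 of hg38 from 55124110 to 55145423 on the plus strand. Untreated libraries 1 to 3 had 1.76, 1.80 and 1.84 FPKM, and PMA libraries 1 to 3 had 31.5, 23.9 and 22.9 FPKM. The untreated libraries were almost level and the lowest PMA library was 12.5 times the highest untreated library. The means were 1.80 ± 0.0386 and 26.1 ± 4.72 FPKM (SD, n = 3 in each group), and the counts behind them were 258 to 360 and 3376 to 4725. The log2 fold change was 3.89 (standard error, SE, 0.15), the 211th highest of the genes tested. By mean FPKM the gene stood above 20.1% of the tested genes without PMA and above 88.9% with it.

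LGALS1 encodes galectin-1 and had the highest FPKM of the 4 in every library. Without the scaling to gene length, LGALS8 had the higher mean CPM, at 123 against 105 untreated and 253 against 241 with PMA. LGALS1 lies on chromosome 22 from 37675636 to 37679802 on the plus strand. The untreated libraries had 114, 81.7 and 90.8 FPKM and the PMA libraries 293, 178 and 171 FPKM, in the order of their replicate numbers. Replicate 1 was the highest in both groups and the groups did not overlap. The means were 95.6 ± 16.8 and 214 ± 68.6 FPKM (SD, n = 3), which placed the gene above 97.6% and 99.4% of the tested genes. The log2 fold change was 1.20 (SE 0.22) with all libraries, and 0.90 without PMA replicate 1.

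LGALS8 encodes galectin-8, which binds glycans of ruptured vesicles and recruits the autophagy receptor NDP52. It lies on chromosome 1 from 236518000 to 236552981 on the plus strand. The untreated libraries had 12.6, 12.5 and 12.7 FPKM and the PMA libraries 23.9, 25.8 and 26.2 FPKM. It was the steadiest of the 3 members that were higher after PMA, with coefficients of variation of 0.99% and 4.96%, against 17.6% and 32.0% for LGALS1. The means were 12.6 ± 0.126 and 25.3 ± 1.25 FPKM (SD, n = 3), and the log2 fold change was 1.04 (SE 0.07). Here PMA replicate 1 was the lowest PMA library, unlike for LGALS1 and LGALS3.

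LGALS12 encodes galectin-12, known from adipose tissue, where it sits on lipid droplets. It lies on chromosome 11 from 63506052 to 63516774 on the plus strand. The untreated libraries had 191, 216 and 150 counts, or 1.00, 1.02 and 1.01 FPKM, and the PMA libraries had 4, 0 and 15 counts, or 0.0253, 0 and 0.0925 FPKM. All 3 untreated libraries stood just above the minimum of 1 FPKM that a gene needed in 3 libraries to be tested, and no PMA library reached it. Its entry into the test therefore rested on the untreated libraries alone. The ratio of the mean FPKM values was 25.8, and the log2 fold change was −4.59 (SE 0.71), the 9th lowest of the genes tested. The value rests on few counts, and it was −6.20 without PMA replicate 3, which held most of the PMA counts, and −4.01 without PMA replicate 2, which had none.

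The order of the levels per gene length changed between the groups. Without PMA it was LGALS1, LGALS8, LGALS3 and LGALS12, and each gene's lowest library lay above the next gene's highest. With PMA, LGALS3 and LGALS8 had means of 26.1 and 25.3 FPKM and their libraries overlapped, so their order is not set, while LGALS1 stayed above both and LGALS12 below.

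The libraries of a group did not spread equally for all members, and the numbered replicate 1 moved LGALS1 most. LGALS1 in replicate 1 exceeded the mean of replicates 2 and 3 by 0.39 log2 CPM without PMA and by 0.75 with it, more than in 91.9% and 97.0% of the tested genes. For genes whose transcripts had a GC content within 2 percentage points of the 59.1% of LGALS1, the medians were 0.12 and 0.19. LGALS3, at 56.0% GC, differed by −0.06 and 0.44, and its GC neighbours had medians of 0.08 and 0.15. LGALS8, at 44.1% GC, differed by −0.01 and −0.12, near the −0.08 and −0.13 of its GC neighbours. Over 10 equal groups of the tested genes ordered by GC, the median difference of replicate 1 ran from −0.16 to 0.15 without PMA and from −0.25 to 0.25 with it. The part of GC content in the values of the members was not tested.

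**Figure D2:**
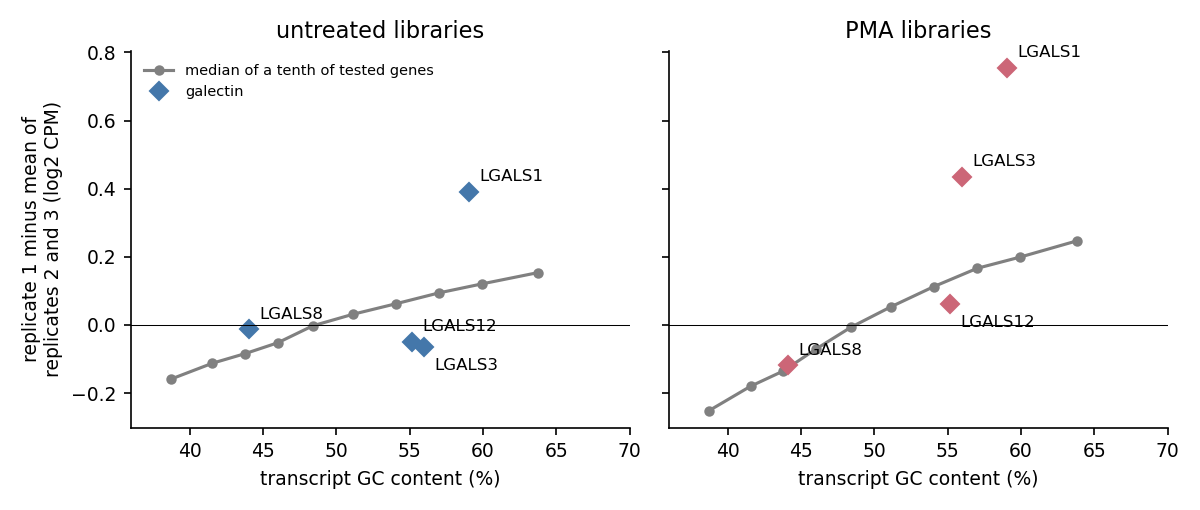
Difference of replicate 1 from the mean of replicates 2 and 3 in log2 CPM against transcript GC content in percent, for untreated (left) and PMA (right) libraries. Grey points are medians of 10 equal groups of the tested genes, which run from −0.25 to 0.25 with PMA, and diamonds are the galectins, of which LGALS1 lies highest in both groups.

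Of 12 other genes of the family, 5 were found, and only LGALS9 among them was abundant. LGALS9 encodes galectin-9, a tandem-repeat galectin and a ligand of the receptor TIM-3. It had 69.7, 68.7 and 73.5 FPKM without PMA and 134, 114 and 113 with it. These groups did not overlap, and the log2 fold change was 0.80 (SE 0.09, edgeR adjusted p = 0.000144). Reads of LGALS9 can be shared with its close copies LGALS9B and LGALS9C, at most 0.367 FPKM in any library, and with the pseudogene LGALS9DP, which had 1.85 to 12.3 FPKM, so its value is uncertain to that extent. LGALSL, a galectin-like gene, had 1.95 and 1.54 FPKM on average and did not pass (log2 fold change −0.30, SE 0.14, edgeR adjusted p = 0.0794). LGALS4, a galectin of gut epithelium, had at most 0.128 FPKM in any library.

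Summed over the 9 galectin genes analysed, FPKM was 184 ± 17.0 without PMA and 387 ± 83.6 with it (SD, n = 3). LGALS1 took 51.7% ± 4.32 of the sum in untreated and 54.5% ± 5.29 in PMA libraries, and LGALS9 38.6% ± 3.52 and 31.5% ± 3.35. LGALS3 went from 0.984% ± 0.102 to 6.78% ± 0.232 of the sum, while LGALS8 held 6.90% ± 0.591 and 6.75% ± 1.59. LGALS12 had 0.554% ± 0.0559 and 0.0109% ± 0.0147. LGALS1 and LGALS9 thus made up most of the summed galectin FPKM in both states. Their order depends on the scaling to gene length. In mean CPM LGALS9 exceeded LGALS1, at 417 against 105 untreated and 725 against 241 with PMA.

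**Figure D3:**
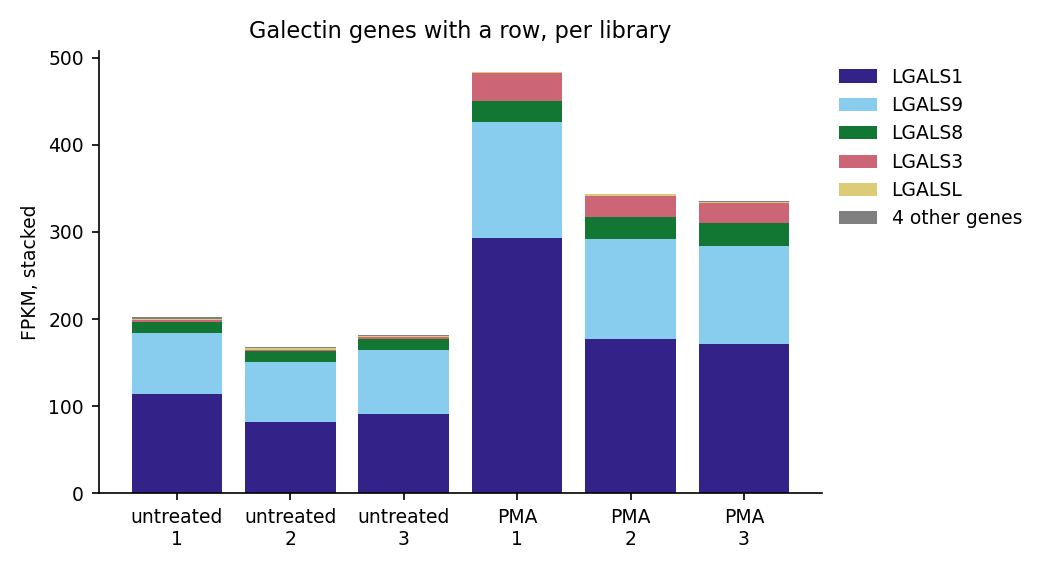
FPKM of the galectin genes stacked for each library. The stacks reach 168 to 202 FPKM in the untreated and 335 to 484 FPKM in the PMA libraries, with LGALS1 and LGALS9 the broadest bands and LGALS3 a clear band only with PMA.

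Genes for galectin binding partners were more often higher than lower after PMA. The lists here and below were chosen with earlier results of these data known, so their shares are a description only. Of 24 listed partners 18 were tested, and 14 were called higher and 0 lower by edgeR, against 32.7% and 32.8% of all genes. At an unadjusted p under 0.05, 1 was lower, and 1 was called lower by DESeq2 and by edgeR without untreated replicate 3. The median log2 fold change of the list was 0.86, against −0.01 over all genes tested. The filter adds rises here, since PDPN, HAVCR2, NRP1 and MERTK reached 1 FPKM in PMA libraries only. Among the 13 partners at 1 FPKM or more in every library, 9 were higher and 0 lower, against 28.9% and 35.6% of all such genes.

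LGALS3BP, a secreted glycoprotein that binds galectin-3, had 1.15, 0.428 and 0.535 FPKM without PMA and 31.2, 23.9 and 24.1 with it. Replicate 1 was again the highest of each group, as for LGALS1. With 1 untreated library at the minimum, it entered the test through the PMA libraries. Its log2 fold change was 5.24 (SE 0.36, edgeR adjusted p = 9.18e-06). PDPN, the membrane mucin podoplanin and a galectin-8 ligand, rose by 6.20 on the log2 scale (SE 0.67), from 0.0266 to 1.95 FPKM. HAVCR2, which encodes TIM-3, rose by 5.01 (SE 0.38). The lysosomal glycoprotein LAMP2 rose by 0.48 (SE 0.10), and LAMP1 had 0.23 (SE 0.15, edgeR adjusted p = 0.216). The transferrin receptor gene TFRC had −0.21 (SE 0.08, edgeR adjusted p = 0.0571). BSG, which encodes basigin, had 0.02 (SE 0.08), and INSR, the insulin receptor gene, had 0.05 (SE 0.14).

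Galectins read the glycans that Golgi enzymes build, and those enzymes went both ways. Of 29 listed enzymes 27 were tested, and 16 were higher (59.3%) and 6 lower (22.2%), against 32.7% and 32.8% of all genes. The median log2 fold change was 0.37. DESeq2 called 13 of 29 higher and edgeR with no filter 11 of 29, with 6 lower in both. Over all genes DESeq2 called 5771 higher and 5476 lower of 26828, and edgeR with no filter 4855 and 5099 of 35042. The shares of 32.7% and 32.8% therefore do not apply to these settings. MGAT3, which adds the bisecting N-acetylglucosamine, had 0.175, 0.0677 and 0.0920 FPKM without PMA and 3.67, 3.05 and 3.48 with it. It rose by 4.95 on the log2 scale (SE 0.33) and entered the test through the PMA libraries alone. GCNT1, which starts the core 2 branch of O-glycans, rose by 1.36 (SE 0.10), and ST3GAL1, a sialyltransferase that caps core 1 O-glycans, by 1.32 (SE 0.08). MGAT5, whose branches raise the affinity of N-glycans for galectins, rose by 0.36 (SE 0.08, edgeR adjusted p = 0.00386), a call that was lost in DESeq2 (0.23, adjusted p = 0.0558) and with no filter (0.21, edgeR adjusted p = 0.0980). ST6GAL1, whose α2,6-sialic acid blocks galectin-1, rose by 0.76 (SE 0.10). The 3 largest falls were B4GALT2 at −1.98 (SE 0.11), B3GNT7 at −1.62 (SE 0.13) and ST3GAL4 at −0.91 (SE 0.08). B4GALT2 adds the galactose of N-acetyllactosamine, B3GNT7 extends such chains and ST3GAL4 caps them with sialic acid.

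In the list for the response to damaged vacuoles, which galectin-3 and galectin-8 take part in, all 29 genes were tested, and 13 were higher (44.8%) and 4 lower (13.8%) at a median of 0.16. All are at 1 FPKM or more in every library, where 28.9% of all genes were higher and 35.6% lower. Without untreated replicates 1 or 2 or PMA replicate 3 the number lower was 1, 2 and 2. OPTN and SQSTM1, both autophagy receptors, rose by 2.73 (SE 0.10) and 1.76 (SE 0.07). VPS13C, a lipid transfer protein that binds galectin-12, rose by 1.28 (SE 0.13). CALCOCO2, which encodes the galectin-8 partner NDP52, went from 11.3 ± 0.425 to 18.4 ± 0.654 FPKM (SD, n = 3), a log2 fold change of 0.73 (SE 0.07, edgeR adjusted p = 6.04e-05). TRIM16, a galectin-3 partner, had −0.26 (SE 0.13, edgeR adjusted p = 0.116). The 4 called lower were CHMP4A of the ESCRT machinery at −0.77 (SE 0.25), LAMTOR1 of the lysosomal Ragulator at −0.51 (SE 0.16), the autophagy gene ATG5 at −0.33 (SE 0.09) and the kinase gene MTOR at −0.26 (SE 0.07). None of these calls held under every setting. Without untreated replicate 1, CHMP4A had −0.61, LAMTOR1 −0.41 and MTOR −0.21, with edgeR adjusted p of 0.0856, 0.0783 and 0.0563. Without untreated replicate 2, CHMP4A had −0.77 and ATG5 −0.26, with edgeR adjusted p of 0.0563 and 0.0782. LAMTOR1 was also not called without PMA replicate 2 (−0.42, edgeR adjusted p = 0.0857) or PMA replicate 3 (−0.40, 0.0872), nor ATG5 without PMA replicate 3 (−0.30, 0.0536).

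**Figure D4:**
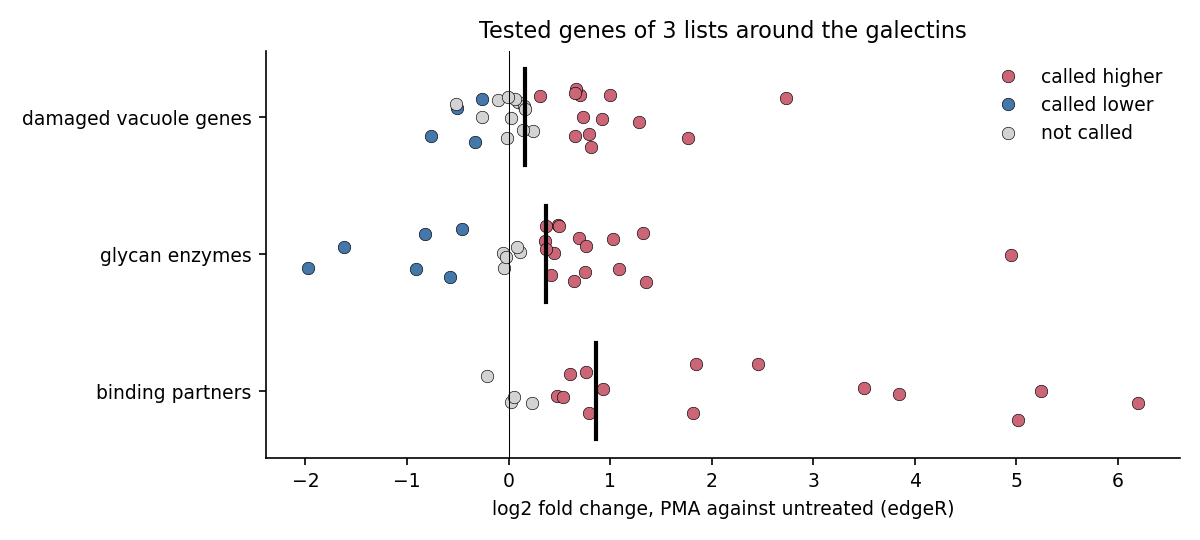
Log2 fold change (PMA against untreated, edgeR) of the tested genes in the lists of binding partners, glycan enzymes and damaged vacuole genes, coloured by the call, with a black line at the median of each list. The medians are 0.86, 0.37 and 0.16, and the binding partners show no call in blue.

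Within 100 kb of the members, 22 other features were found and 15 were tested. Of these 5 were higher and 6 lower, shares near the 32.7% and 32.8% of all genes, so nothing particular to the neighbours is read from them. LGALS8 shares 3977 bases with HEATR1, a ribosome biogenesis gene on the opposite strand. HEATR1 had 28.4, 32.2 and 29.5 FPKM without PMA and at most 20.6 FPKM in a PMA library. It fell while LGALS8 was higher, at −0.66 on the log2 scale (SE 0.10, edgeR adjusted p = 0.000736). The unnamed ENSG00000230325, also on the opposite strand within LGALS8, rose by 1.44 (SE 0.29), at 0.914 and 2.46 FPKM. LGALS8-AS1 had 0 to 15 counts in any library, and ENSG00000273058, the remaining overlapping feature, had 0.21 (SE 0.26). Whether counting used strand is not stated. Reads of LGALS8 and of these partners therefore cannot be told apart where they overlap. Downstream of LGALS1 by 1871 bases, NOL12, which encodes a nucleolar protein, fell, at −1.40 (SE 0.12). Upstream, PDXP, a pyridoxal phosphatase, had 7.86, 2.72 and 2.37 FPKM without PMA and 13.8, 7.43 and 8.42 with it, so the groups overlap. Its log2 fold change of 1.23 (SE 0.46, edgeR adjusted p = 0.0431) was not called in DESeq2 (1.10, adjusted p = 0.141) or without untreated replicate 2 (0.99) or 3 (0.95) or PMA replicate 1 (0.91) or 3 (1.34). PDXP overlaps ENSG00000285304 on the same strand, which fell, at −1.89 (SE 0.18), so the split of reads between them is uncertain. DLGAP5, a mitotic spindle gene whose end lies 2689 bases from that of LGALS3 on the opposite strand, fell, at −0.69 (SE 0.13), and MAPK1IP1L on the other side had 0.19 (SE 0.14). The 3 neighbours of LGALS12, PLAAT4, PLAAT2 and PLAAT3, were too low to be tested.

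The genes with the pattern most like a member were taken by the root mean square difference of log2 CPM over the 6 libraries after each gene's mean was removed. These differences mostly follow the treatment that splits the libraries and say nothing of shared control. For LGALS3 they were the protease gene MMP9, the cytokine gene CSF1 and IL1B, at 0.13 to 0.14 against a median of 1.95 over all tested genes. For LGALS8 they were the magnesium transporter gene SLC41A1, the tryptophanyl-tRNA synthetase gene WARS1 and SIRPA, a receptor for CD47, all at 0.03. For LGALS1 they were AIFM3, the immunoproteasome gene PSMB9 and the histone gene H2BC12, at 0.08 to 0.09. For LGALS12 the nearest genes, CACNA2D3, LINC02204 and MIR9-3HG, were at 0.83 to 0.88, a looser match than for the other members.

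Under the other settings run, each member kept its direction wherever it was tested. The groups of each member do not overlap, so these settings could hardly turn its direction. LGALS1 ranged from 0.90 to 1.34, LGALS3 from 2.18 to 4.01, LGALS8 from 0.78 to 1.16 and LGALS12 from −6.20 to −0.25 on the log2 scale. The values nearest to 0 for LGALS3, LGALS8 and LGALS12 came from a pseudocount of 5 added to FPKM, and that for LGALS1 from leaving out PMA replicate 1.

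**Figure D5:**
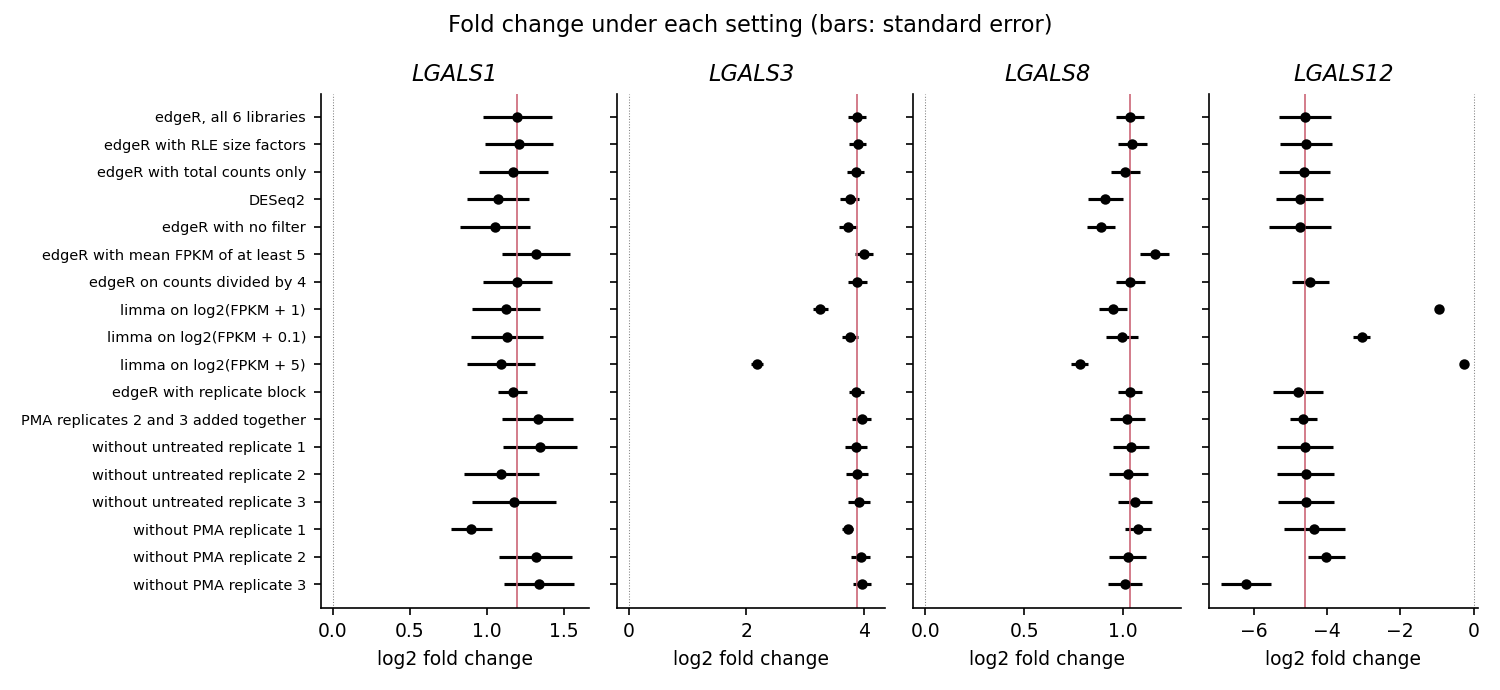
Log2 fold change of each member under each setting, with bars for the standard error and a red line at the value from edgeR with all 6 libraries. All values of LGALS1, LGALS3 and LGALS8 lie above 0 and all of LGALS12 below 0, where the value runs from −6.20 to −0.25.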

How the data were processed

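Poly(A) RNA of 3 untreated and 3 PMA-treated THP-1 samples was selected on oligo(dT) and read from both fragment ends. The study describes the libraries of a group as independent biological experiments. The authors deposited whole-number counts per gene, not scaled, and FPKM values, scaled by gene length and library size, in a table of 35424 features. hg38 and DESeq2 are named in the submitters' processing notes. No source used here gives the aligner, the counting tool or the use of strand. Among counts from 3 to 22 in a library, 37.2% to 39.1% were multiples of 4, against 25% of the whole numbers in that range, so counts may not be single fragments.

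The feature with the highest mean count was kept for each name. Counts were tested with edgeR 4.0.16 (R 4.3.3, quasi-likelihood test, only treatment in the model, TMM factors 0.984 to 1.021) over the 12947 genes with at least 1 FPKM in at least 3 libraries, with Benjamini-Hochberg adjustment over all of them and calls at an adjusted p under 0.05. The standard error is the size of the log2 fold change divided by the square root of the F statistic. DESeq2 1.42.0 and limma 3.58.1 on log2(FPKM + pseudocount) were alternatives. GC content is the mean over GENCODE v44 transcripts.

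The members and the lists were chosen with earlier results of these data known. Named were the 3 most raised and 3 most lowered called genes of the lists of partners, glycan enzymes and damaged vacuole genes, all family genes with a value, LGALS3BP, some of the genes behind counts of 5 or fewer, the overlapping and nearest tested neighbours, and the 3 genes most like each member. LAMP2, MGAT5, ST6GAL1, CALCOCO2, TRIM16, LGALS9DP, ENSG00000285304, the cell type markers and the untested neighbours were named outside this rule after their values were seen.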

Additional observations from a re-analysis of the deposited data

How the results depend on the processing

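Of 17 alternatives, none turned the direction of a member, which groups without overlap made unlikely from the start. Nothing is read from the numbers of members called, since the members were picked on this contrast. Over all genes, the alternatives called 2433 to 5771 higher and 2457 to 5476 lower. The numbers of members called stayed at 3 higher and 1 lower except with a mean FPKM of at least 5. There LGALS12 was no longer tested and 0 were lower. Relative to the values given in the report, DESeq2, no filter and that mean FPKM moved the median of shared genes by −0.13, −0.15 and 0.12, and LGALS8 with it, to 0.91, 0.89 and 1.16. With pseudocounts of 1 and 5 on FPKM, by limma, LGALS8 was 0.95 and 0.78, LGALS3 3.26 and 2.18, and LGALS12 −0.95 and −0.25, and with 0.1 LGALS12 was −3.05. A pseudocount shrinks the change of a low gene by construction. Without 1 library LGALS12 ranged from −6.20 to −4.01. A mean FPKM of at least 5 left 7142 genes, with 2433 higher and 2457 lower, and called 10 glycan enzymes higher and 3 lower, 0 damaged vacuole genes lower and 3 neighbours higher. DESeq2, no filter, the pseudocount of 5 and the replicate block each called 1 binding partner lower. Without 1 library the number of binding partners lower ranged from 0 to 1 and that of damaged vacuole genes lower from 1 to 5. PDXP was also not called with no filter (1.08) or with PMA replicates 2 and 3 added (1.37), and the latter also ended the call of LAMTOR1 (−0.41). The cause of these shifts was not tested. With PMA replicates 2 and 3 added together LGALS1 was 1.33, LGALS3 3.96, LGALS8 1.02 and LGALS12 −4.64. Deviations of same-numbered libraries had correlations of 0.38 for replicate 1, 0.04 for replicate 2 and 0.03 for replicate 3. By the 0.38, replicate 1 had deviations in common across the groups, and the source of these was not tested. Untreated replicate 1 had −0.25 and −0.24 with PMA replicates 2 and 3. The deviations of a group sum to 0 for each gene, so these negative values are bound to the 0.38 and add no support. Replicates 2 and 3 did not pair by number, and untreated replicate 2 correlated best with PMA replicate 3, at 0.23. With the replicate block LGALS1 was 1.16, LGALS3 3.87, LGALS8 1.03 and LGALS12 −4.79, with 4657 genes higher and 4758 lower. The SE of LGALS1 was 0.095 with the block, against 0.22 without it. Depth limits LGALS12 most, at 0 to 15 counts in a PMA library.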
